A study of Gallus gallus with 6 samples.

Results

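LAMA3 and ITGA8 are 2 of the 15955 genes in a count table made from chicken (Gallus gallus) basilar papillas, the strips of hair cells and supporting cells that serve hearing in birds. Both were found by name in the authors' deposited tables of called genes and were selected on their change between the groups, so their own levels and fold changes are given as a description, without a test. One group was infected with RCAS(A)-Wnt9a, a replication-competent avian retrovirus carrying Wnt9a, and the control group with the RCAS(A) parent virus. The right otocyst was infected on embryonic day 3, and papillas were taken on embryonic day 6, in 3 libraries per group that each pooled the RNA of 24 papillas. The replicates, called pools here, are numbered 1, 2 and 3 in the RCAS(A)-Wnt9a group and 2, 3 and 4 in the RCAS(A) group. How far the virus spread within each papilla, and the sex of the embryos, are not stated in the labels, and the controls carry the parent virus too, so no uninfected papilla enters the comparison.

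A basement membrane is a thin sheet of matrix on which an epithelium rests, built from laminin and type IV collagen networks that other proteins link together. Each laminin is made of an alpha, a beta and a gamma chain. LAMA3 encodes the alpha3 chain, which occurs in the laminins that anchor epithelial cells. Cells hold on to matrix through integrins, pairs of one alpha and one beta chain that span the cell membrane. ITGA8 encodes the alpha8 chain, which pairs with the beta1 chain and binds proteins such as nephronectin, fibronectin and tenascin-C. In mice, loss of Itga8 disturbs the stereocilia of inner ear hair cells and the growth of the kidney.

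LAMA3 was higher and ITGA8 was lower in papillas infected with RCAS(A)-Wnt9a than in those infected with RCAS(A). LAMA3 averaged 12.3 ± 2.03 CPM in the RCAS(A)-Wnt9a pools and 4.54 ± 0.897 CPM in the RCAS(A) pools (SD, n = 3 each). ITGA8 averaged 113 ± 18.6 CPM in the RCAS(A)-Wnt9a pools and 213 ± 6.82 CPM in the RCAS(A) pools (SD, n = 3 each). CPM is the count of a gene scaled to library size, here after TMM, a correction for library composition. RNA of whole papillas was measured, so a change in the number of cells of one type and a change in RNA per cell cannot be told apart.

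The libraries held 19200235 to 23017150 counts, and 12133 genes had enough counts to be tested. WNT9A, the gene the virus carries, was at 1340, 539 and 427 CPM in RCAS(A)-Wnt9a pools 1, 2 and 3, against 7.90, 6.87 and 10.3 CPM in RCAS(A) pools 2, 3 and 4. Its counts may hold viral as well as endogenous transcripts. Of the named sensory markers, SOX2, a transcription factor of sensory progenitors, averaged 50.3 CPM with RCAS(A)-Wnt9a and 70.3 CPM with RCAS(A). ISL1, a LIM homeobox factor, averaged 103 CPM with RCAS(A)-Wnt9a and 146 CPM with RCAS(A). The hair cell gene PCDH15 went the other way, averaging 15.5 CPM with RCAS(A)-Wnt9a and 10.7 CPM with RCAS(A) (edgeR adjusted p = 0.0702). Across the 6 libraries SOX2 was never below 42.6 CPM and ISL1 never below 95.5 CPM. TECTB, the gene of a tectorial membrane protein, was at 0.720, 4.23 and 3.40 CPM in RCAS(A)-Wnt9a pools 1, 2 and 3, against 49.0, 57.3 and 40.1 CPM in RCAS(A) pools 2, 3 and 4. It fell by 4.14 on the log2 scale (SE 0.48, edgeR adjusted p = 0.0232). Its adjusted p stayed under 0.05 in 2 of the 6 fits with a library left out.

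LAMA3 (ENSGALG00000015056) lies on chromosome 2 in galGal4, from 102780727 to 102893609 as listed in the deposited files. It had 300, 303 and 188 reads in RCAS(A)-Wnt9a pools 1, 2 and 3, against 129, 91 and 79 reads in RCAS(A) pools 2, 3 and 4. On the CPM scale these were 13.5, 13.5 and 9.98 CPM in the RCAS(A)-Wnt9a libraries and 5.57, 4.17 and 3.90 CPM in the RCAS(A) libraries. The groups did not overlap, and the lowest RCAS(A)-Wnt9a library stood at 1.79 times the highest RCAS(A) library. The fitted log2 fold change was 1.44 (SE 0.18), or 2.71-fold. By counting alone, the 95% interval was 8.60 to 11.5 CPM in RCAS(A)-Wnt9a pool 3, the lowest of its group, and 4.65 to 6.62 CPM in RCAS(A) pool 2, the highest of its group. The coefficient of variation between pools was 16.5% with RCAS(A)-Wnt9a and 19.7% with RCAS(A), and the counting error of a single library was 5.74% to 7.29% with RCAS(A)-Wnt9a and 8.80% to 11.3% with RCAS(A).

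ITGA8 (ENSGALG00000008747) lies on the same chromosome, from 20218012 to 20318200 in galGal4 as listed, 82.46 Mb away from LAMA3. Its reads numbered 2075, 2602 and 2456 in RCAS(A)-Wnt9a pools 1, 2 and 3, against 4996, 4481 and 4416 in RCAS(A) pools 2, 3 and 4. These were 93.4, 116 and 130.3 CPM with RCAS(A)-Wnt9a and 216, 205 and 218 CPM with RCAS(A). The groups did not overlap here either, and the highest RCAS(A)-Wnt9a library reached 0.635 times the lowest RCAS(A) library. The fitted log2 fold change was -0.91 (SE 0.10), which leaves 53.1% of the RCAS(A) level. The RCAS(A) pools lay close together, with a coefficient of variation of 3.20%, while the RCAS(A)-Wnt9a pools spread over 16.5%. Counting error was at most 2.20% of the value in any library.

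**Figure D1:**
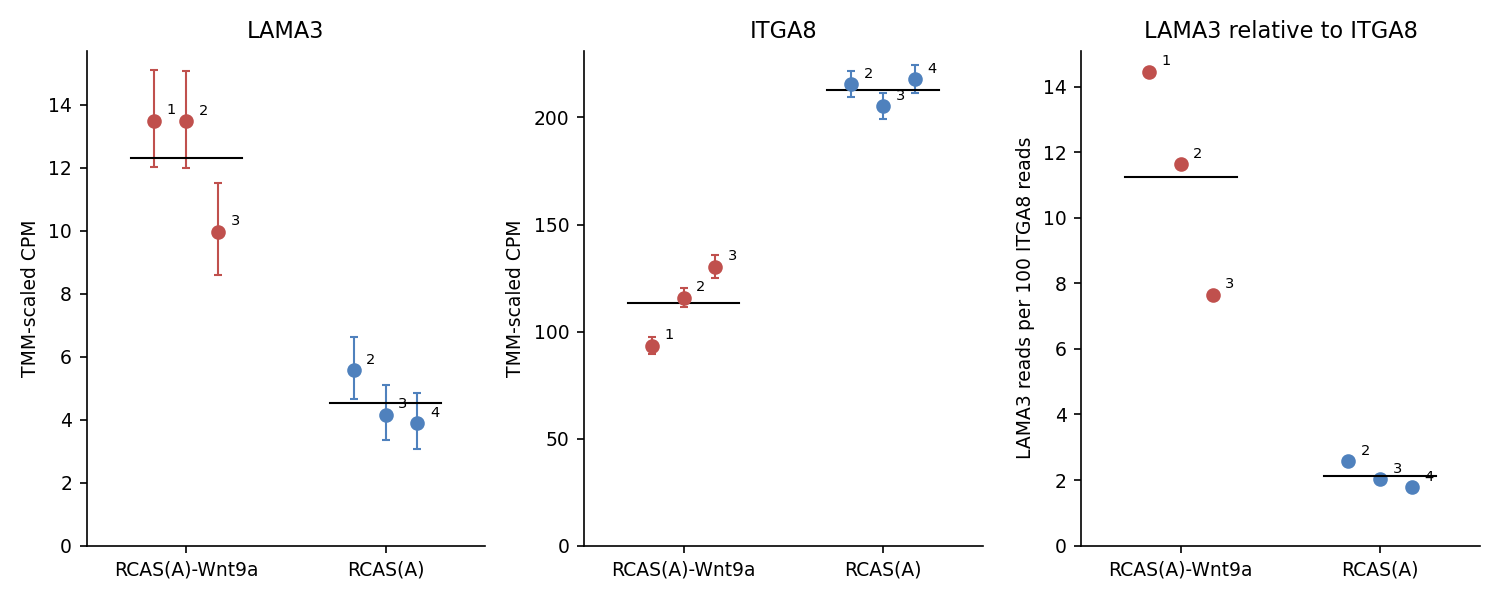
Levels of LAMA3 and ITGA8 in TMM-scaled CPM, and LAMA3 reads per 100 ITGA8 reads, in each library (points, numbered by replicate), with RCAS(A)-Wnt9a on the left and RCAS(A) on the right of each panel. Horizontal lines are group means and error bars exact Poisson 95% counting intervals. LAMA3 sits between 9.98 and 13.5 CPM with RCAS(A)-Wnt9a and between 3.90 and 5.57 CPM with RCAS(A), ITGA8 between 93.4 and 130.3 CPM with RCAS(A)-Wnt9a and between 205 and 218 CPM with RCAS(A).

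Both members were among the genes called at an adjusted p under 0.05 (edgeR quasi-likelihood test), in the same contrast that the authors' tables used, so nothing is read from it. Over all tested genes 276 passed, or 2.27%, with 174 higher (1.43%) and 102 lower (0.841%) with RCAS(A)-Wnt9a. Both were also among the genes whose groups did not overlap, which was the case for 19.0% of all tested genes. Ordered by fold change, LAMA3 was the 18th largest of the 174 rises and ITGA8 the 25th largest of the 102 falls. The authors' deposited table from edgeR gives log2 fold changes of 1.44 for LAMA3 and -0.91 for ITGA8. The authors' deposited table from DESeq2 gives 0.78 (SE 0.11) for LAMA3 and -0.75 (SE 0.08) for ITGA8. DESeq2 as run here on the deposited counts gave 1.44 for LAMA3 and -0.91 for ITGA8, the same as edgeR at this rounding. The smaller changes in the deposited DESeq2 table were thus not seen with that program as run here. That run did not shrink fold changes, a step that pulls noisy ones toward no change. Whether the deposited values were shrunken is not known here, so they may not be like for like. The gap between the deposited DESeq2 table and the fits made here was wider for LAMA3, the gene with fewer reads. The cause of the gap was not tested.

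The ratio of the 2 genes within a library does not depend on library scaling. There were 14.5, 11.6 and 7.65 LAMA3 reads per 100 ITGA8 reads in RCAS(A)-Wnt9a pools 1, 2 and 3, against 2.58, 2.03 and 1.79 in RCAS(A) pools 2, 3 and 4. The groups were apart, and the RCAS(A)-Wnt9a libraries differed among themselves by more than the RCAS(A) libraries did. On the log2 scale the ratio averaged -3.20 ± 0.47 with RCAS(A)-Wnt9a and -5.57 ± 0.27 with RCAS(A) (SD, n = 3 each), a difference of 2.37 or 5.16-fold. Reads per gene grow with transcript length, so this ratio does not compare the molar levels of the transcripts.

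Per transcript length, ITGA8 was the more abundant of the pair in both groups. FPKM is a level scaled to transcript length and library depth. The authors' pooled FPKM of ITGA8 was 26.3 with RCAS(A)-Wnt9a, with deposited confidence bounds of 21.8 and 30.8, and 49.2 with RCAS(A), with bounds of 40.9 and 57.4. The authors' pooled FPKM of LAMA3 was 1.14 with RCAS(A)-Wnt9a, with bounds of 0.855 and 1.43, and 0.398 with RCAS(A), with bounds of 0.259 and 0.537. ITGA8 thus stood 23.0-fold above LAMA3 on the FPKM scale with RCAS(A)-Wnt9a and 124-fold above it with RCAS(A). Among the 15793 genes of that table, LAMA3 was at the 31.8th percentile of FPKM with RCAS(A)-Wnt9a and the 26.5th with RCAS(A), and ITGA8 at the 72.3rd with RCAS(A)-Wnt9a and the 85.6th with RCAS(A). LAMA3 was therefore a gene of low level in both groups, and ITGA8 one of moderate to high level.

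The 3 RCAS(A)-Wnt9a pools differed in WNT9A and in both members. Pool 1, with the most WNT9A, had the lowest ITGA8 and, by a margin of far less than counting error over pool 2, the highest LAMA3. Pool 3, with the least WNT9A, had the highest ITGA8 and the lowest LAMA3. Pool 1 was the pool farthest in the direction of the change for 122 of the 276 called genes (44.2%) and for 31.7% of all tested genes. The full order of the 3 pools by WNT9A, seen in both members, was found in 3 of the 7 other named genes of the matrix and adhesion lists, in 26.4% of the called genes and in 16.6% of all tested genes. With 3 pools this is given as values only, and a relation to WNT9A was not tested.

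The matrix and adhesion genes around LAMA3 and ITGA8 were read through 7 lists of laminin chains, other basement membrane components, integrin chains, alpha8 beta1 ligands, other laminin receptors, adhesion adaptors and matrix enzymes. Of their 123 distinct genes, 9 have a name in the deposited tables, which name only genes that the authors called. Beside LAMA3 and ITGA8 these are NPNT, TNC, SMOC1, NTN4, ITGA6, ITGB6 and VCL. Of these 7, 2 rose, 1 fell and 4 missed the threshold (edgeR quasi-likelihood test, Benjamini-Hochberg adjusted over all tested genes), with a median log2 fold change of 0.32. Over the 485 tested genes with a name, 169 rose, 96 fell and 220 missed it, with a median of 0.28, and over all tested genes the median was -0.00. The 7 were named through calls on these same libraries, so their count is not independent evidence about the lists. No laminin chain other than LAMA3 and no matrix enzyme of the lists carries a name, and their levels were not analysed here.

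Among the ligands of the alpha8 beta1 integrin, NPNT, which encodes nephronectin, rose while ITGA8 was lower. NPNT (chromosome 4) was at 499.9, 506 and 501 CPM in RCAS(A)-Wnt9a pools 1, 2 and 3, against 384, 435 and 388 CPM in RCAS(A) pools 2, 3 and 4. The RCAS(A)-Wnt9a pools lay within a few CPM of each other and above every RCAS(A) pool. The log2 fold change was 0.32 (SE 0.06, edgeR adjusted p = 0.0174). The call was lost without RCAS(A) pool 2 or 4 or RCAS(A)-Wnt9a pool 2, with adjusted p of 0.126, 0.113 and 0.0584, in a range of 8.24e-05 to 0.126 over all alternatives.

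TNC encodes tenascin-C, another ligand of that integrin. Its FPKM was the highest of the 9 named genes, 183 with RCAS(A)-Wnt9a and 133 with RCAS(A) as the authors' pooled values. Its confidence bounds overlap those of NPNT in both groups, and with RCAS(A) those of ITGA6 and ITGB6 as well. Its counts came to 1350, 1170 and 1051 CPM in RCAS(A)-Wnt9a pools 1, 2 and 3, against 942, 670.1 and 988 CPM in RCAS(A) pools 2, 3 and 4. The groups did not overlap, but RCAS(A) pool 3 was far below the other controls. The log2 fold change of 0.46 (SE 0.16) missed the threshold (edgeR adjusted p = 0.281), and it was 0.30 without that library.

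Of the integrin chains, ITGA6, the alpha6 chain of laminin receptors, fell as well. ITGA6 (chromosome 7) had 251, 272 and 309 CPM in RCAS(A)-Wnt9a pools 1, 2 and 3, against 366, 379 and 353 CPM in RCAS(A) pools 2, 3 and 4. As with ITGA8, the lowest pool was RCAS(A)-Wnt9a pool 1. The log2 fold change was -0.40 (SE 0.07, edgeR adjusted p = 0.0116), a smaller change than that of ITGA8, and the difference between them was not tested. The call was lost without RCAS(A) pool 2 or 3 or RCAS(A)-Wnt9a pool 2, with adjusted p of 0.0572, 0.0533 and 0.0629, in a range of 4.59e-05 to 0.0629 over all alternatives.

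ITGB6, the beta6 chain, which pairs with the alphaV chain, had 116, 211 and 209.8 CPM in RCAS(A)-Wnt9a pools 1, 2 and 3, against 330.1, 336 and 297 CPM in RCAS(A) pools 2, 3 and 4. RCAS(A)-Wnt9a pool 1 was far below the other pools of its group. The log2 fold change of -0.84 (SE 0.25) missed the threshold (edgeR adjusted p = 0.265). Without that library the log2 fold change was -0.61 and the adjusted p 0.000289. With all 6 libraries DESeq2 gave an adjusted p of 0.0361, and over all alternatives the adjusted p ranged from 1e-12 to 0.525. The lowest came from the replicate block, which keeps 4 libraries and leaves little to estimate the spread of a gene. On the FPKM scale the authors' pooled values ranked ITGA6, then ITGB6, then ITGA8 in both groups, at 92.1, 59.4 and 26.3 with RCAS(A)-Wnt9a and 121, 105 and 49.2 with RCAS(A). The confidence bounds of ITGA6 and ITGB6 do not meet with RCAS(A)-Wnt9a and overlap with RCAS(A).

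SMOC1 and NTN4, secreted proteins found in basement membranes, missed the threshold in opposite directions. SMOC1, a calcium-binding glycoprotein, had 23.4, 15.4 and 16.8 CPM in RCAS(A)-Wnt9a pools 1, 2 and 3, against 14.5, 12.2 and 11.5 CPM in RCAS(A) pools 2, 3 and 4 (log2 fold change 0.54, SE 0.16, edgeR adjusted p = 0.117). Its log2 fold change was 0.34 without RCAS(A)-Wnt9a pool 1, the highest library, and 0.27 to 0.66 over all alternatives. NTN4, a netrin related to laminin chains, was low, with 0.540, 1.47 and 0.955 CPM in RCAS(A)-Wnt9a pools 1, 2 and 3, against 2.33, 2.24 and 2.37 CPM in RCAS(A) pools 2, 3 and 4 (log2 fold change -1.22, SE 0.31, edgeR adjusted p = 0.0612). Without RCAS(A)-Wnt9a pool 2, the highest of its group, NTN4 passed with an edgeR adjusted p of 0.027. With all 6 libraries and no count filter it passed too (edgeR adjusted p = 0.043). Over all alternatives its adjusted p ranged from 0.027 to 0.178. Its authors' pooled FPKM was 0.166 with RCAS(A)-Wnt9a and 0.397 with RCAS(A), so that with RCAS(A) it stood at the level of LAMA3 and with RCAS(A)-Wnt9a below it.

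VCL encodes vinculin, which links integrin adhesions and cell junctions to actin. It had 290, 263 and 260.4 CPM in RCAS(A)-Wnt9a pools 1, 2 and 3, against 206, 189.8 and 210.04 CPM in RCAS(A) pools 2, 3 and 4. All RCAS(A)-Wnt9a pools were above all RCAS(A) pools. VCL rose by 0.43 on the log2 scale (SE 0.07, edgeR adjusted p = 0.00301) and was the 1 gene of these 7 that passed in each of the 6 fits with a library left out, where its highest adjusted p was 0.0181. In 6 of the 7 genes, all but NPNT, RCAS(A)-Wnt9a pool 1 was the pool farthest in the direction of the change, as for LAMA3 and ITGA8. The same held for 44.2% of the called genes and 31.7% of all tested genes. With 7 genes named through calls on these libraries, nothing is read from that count.

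**Figure D2:**
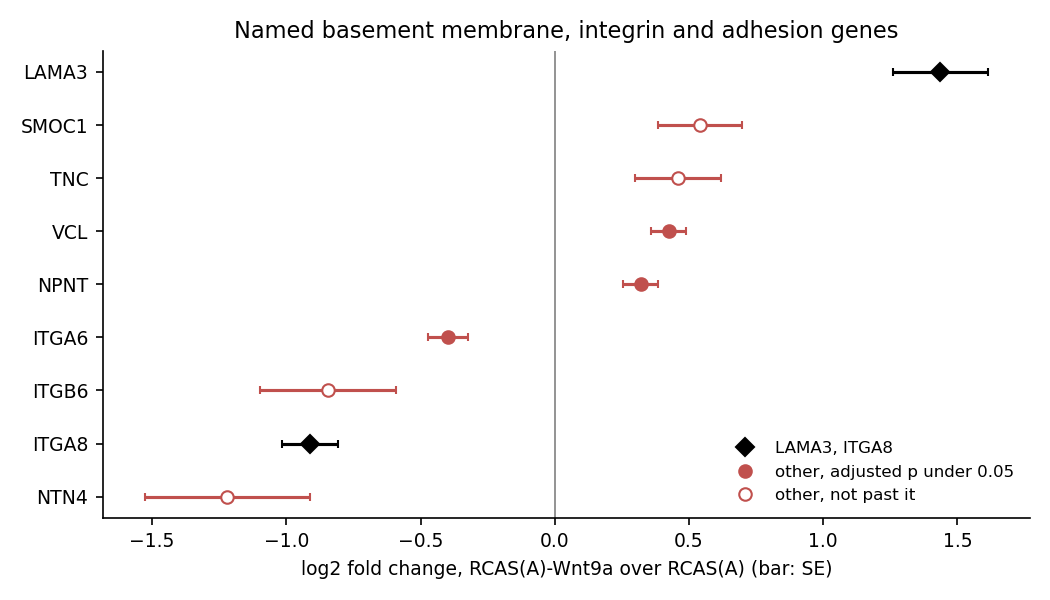
Log2 fold change with its SE, RCAS(A)-Wnt9a over RCAS(A), for LAMA3 and ITGA8 (diamonds, shown without a test) and the 7 other named list genes (filled circles past the threshold, open circles not). LAMA3 stands at 1.44 and ITGA8 at -0.91, and the called genes VCL, NPNT and ITGA6 at 0.43, 0.32 and -0.40.

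**Figure D3:**
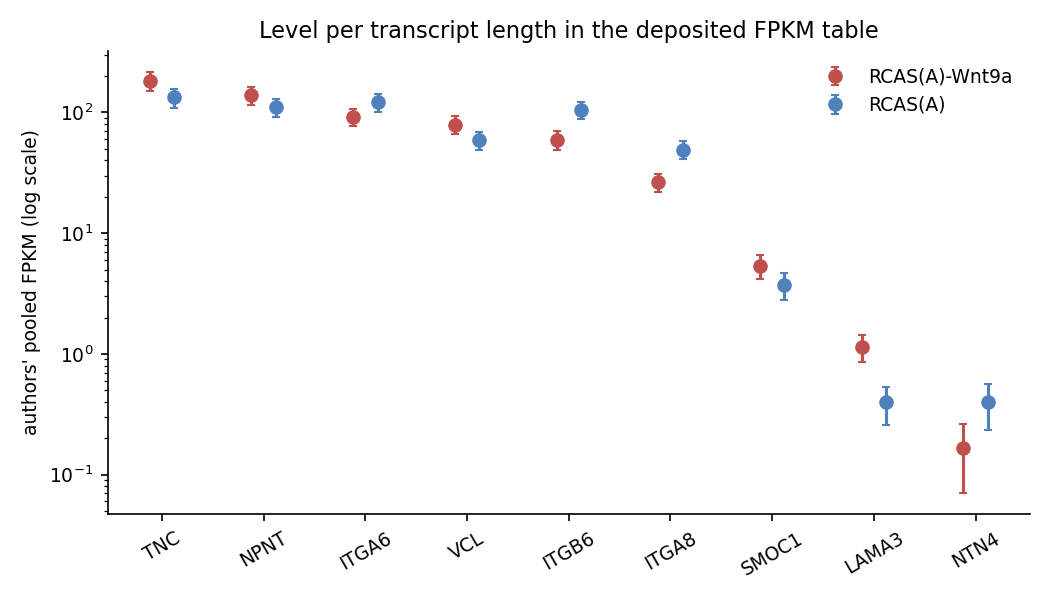
The authors' pooled FPKM on a log axis, with their confidence bounds as bars, for LAMA3, ITGA8 and the 7 other named list genes, with RCAS(A)-Wnt9a left of RCAS(A) for each gene. TNC is highest at 183 and 133, and LAMA3 is near the low end at 1.14 and 0.398.

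The genes next to either member were not called. The 5 nearest tested genes on each side of LAMA3 had log2 fold changes of -0.09 to 0.20, and those around ITGA8 -0.27 to 0.11. None of the 20 passed the threshold in edgeR or in DESeq2, and 0 had an unadjusted p under 0.05 in either. The lowest adjusted p was 0.497 around LAMA3 and 0.466 around ITGA8 (edgeR quasi-likelihood test). None of these 20 genes carries a name in the deposited tables. No other listed gene overlaps the span of either member. Of the 1095 tested genes on chromosome 2, 36 were called, or 3.29%, against 2.27% of all tested genes. At such shares a set of 20 genes would often hold no called gene, so nothing is read from its absence.

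**Figure D4:**
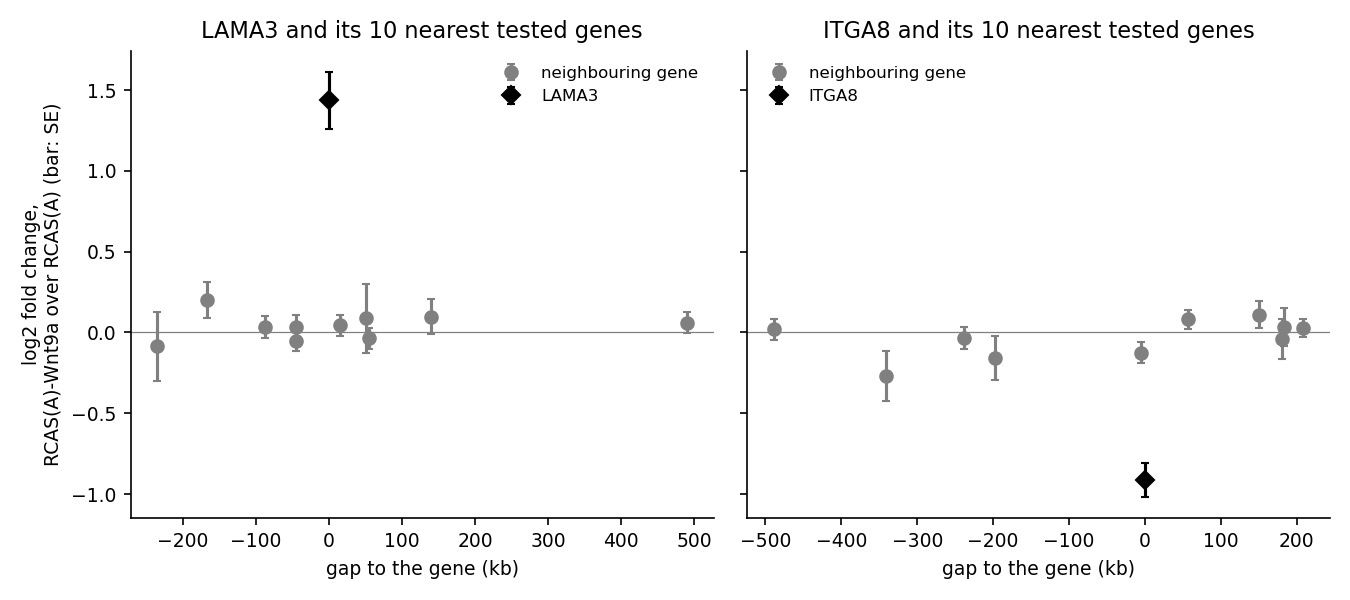
Log2 fold change with its SE, RCAS(A)-Wnt9a over RCAS(A), of LAMA3 and ITGA8 (black diamonds) and of the 5 nearest tested genes on each side (grey circles), against the gap in kilobases to the member. The neighbours lie between -0.27 and 0.20, the members at 1.44 and -0.91.

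The named genes whose levels ran most like those of a member were found by the root mean square difference in log2 CPM over the 6 libraries, with each gene centred on its own mean, among 457 other genes with a name and an average log2 CPM of at least 1. For LAMA3 they were HTR3A, a serotonin receptor channel subunit, at 0.13, NOTUM, an enzyme that inactivates Wnt proteins, at 0.16, PRPS2, an enzyme of nucleotide synthesis, at 0.19, the growth factor gene FGF3 at 0.22 and the contactin gene CNTN6 at 0.23. For ITGA8 they were STC2, a secreted glycoprotein, at 0.08, the neurotrophin gene BDNF at 0.14, SLC9A2, a sodium and proton exchanger, at 0.15, the cytochrome P450 gene CYP2J2 at 0.15 and the neurexin gene NRXN3 at 0.15. These 10 were also the nearest when genes without a name were included. None of them belongs to the matrix and adhesion lists. Both outcomes were close to fixed in advance. Of the 276 called genes 265 have a name, and only 7 list genes beside the members have one.

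HTR3A, the nearest to LAMA3, had 6.03, 6.45 and 4.46 CPM in RCAS(A)-Wnt9a pools 1, 2 and 3, against 2.07, 2.01 and 1.53 CPM in RCAS(A) pools 2, 3 and 4. Like LAMA3 it was lowest of its group in pool 3 with RCAS(A)-Wnt9a and in pool 4 with RCAS(A). STC2, the nearest to ITGA8, had 10.5, 12.8 and 12.5 CPM in RCAS(A)-Wnt9a pools 1, 2 and 3, against 24.4, 22.5 and 23.8 CPM in RCAS(A) pools 2, 3 and 4. It shared with ITGA8 the low value of RCAS(A)-Wnt9a pool 1. The difference between the groups makes up most of each pattern, so any gene with a similar fold change ranks near.

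**Figure D5:**
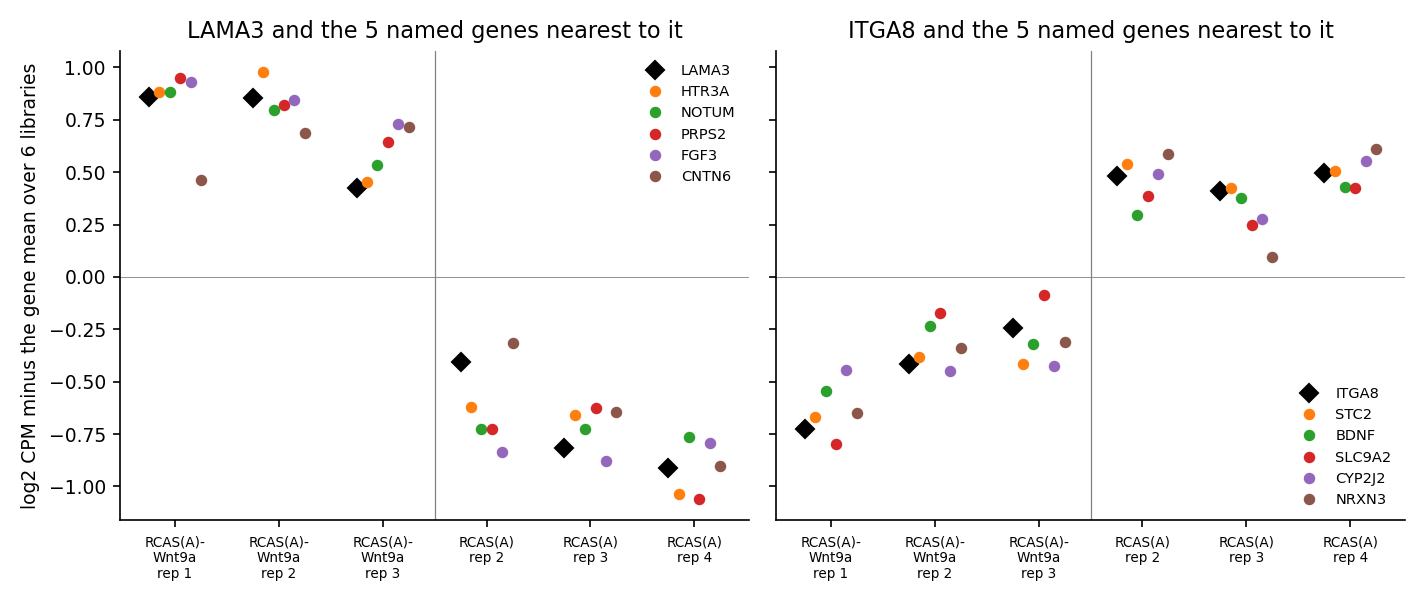
Log2 CPM minus each gene's mean over the 6 libraries, for LAMA3 (left, black diamonds) and ITGA8 (right, black diamonds) and the 5 named genes nearest to each (coloured circles), in the RCAS(A)-Wnt9a libraries left of the dividing line and the RCAS(A) libraries right of it. The nearest genes differ from LAMA3 by 0.13 to 0.23 and from ITGA8 by 0.08 to 0.15 in root mean square.

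Markers of the cell types that a papilla dissection could hold were read in the same way, with names only where the authors' tables give one. Of all tested genes with a name 54.6% were called, against 2.27% of all tested genes. The counts of called markers are to be read beside the share of 54.6%. The sums hold only genes named through the authors' calls in this same contrast. Groups that stand apart in a sum were thus close to fixed in advance, and a sum does not give the level of its list or cell type. Of the prosensory and supporting cell list, 5 of 12 genes have a name, and 4 of these fell (SOX2, HES5, TECTB and ISL1) while PROX1 missed the threshold. ISL1 stayed called with any 1 library left out. SOX2 passed in 4 of these 6 fits, and HES5 and TECTB in 2 each. The highest adjusted p was 0.063 for SOX2, 0.167 for HES5 and 0.110 for TECTB. The summed level of the 5 was 192 to 241 CPM with RCAS(A)-Wnt9a and 338 to 367 CPM with RCAS(A). Of the nonsensory otic epithelium list, 8 of 10 have a name, 5 of them rising, 1 falling and 2 short of the threshold. They summed to 263 to 281 CPM with RCAS(A)-Wnt9a and 208 to 223 CPM with RCAS(A). LMX1A, which rose, averaged 111 CPM with RCAS(A)-Wnt9a and 65.2 CPM with RCAS(A). CFTR fell, averaging 2.35 CPM with RCAS(A)-Wnt9a and 5.81 CPM with RCAS(A). OTX2, short of the threshold (edgeR adjusted p = 0.107), averaged 71.3 CPM with RCAS(A)-Wnt9a and 89.9 CPM with RCAS(A). The higher sum thus does not hold for each gene. The 6 named genes of 14 in the periotic mesenchyme list, 2 of them rising, 1 falling and 3 short of it, summed to 947 to 1114 CPM with RCAS(A)-Wnt9a and 815 to 868 CPM with RCAS(A). Most of that sum came from COL1A2 and TBX18, both short of the threshold (edgeR adjusted p = 0.114 and 0.0796). COL1A2 averaged 607 CPM with RCAS(A)-Wnt9a and 497 CPM with RCAS(A), and TBX18 averaged 257 and 219 CPM. In these lists PAX2, which rose, and LUM, which fell, each passed in only 1 of the 6 fits with a library left out, with highest adjusted p of 0.221 and 0.177. The part of these changes in named genes in the levels of LAMA3 and ITGA8 was not tested.

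Among the remaining marker lists, the 3 named hair cell genes of 13 summed to 60.2 to 71.2 CPM with RCAS(A)-Wnt9a and 83.04 to 85.6 CPM with RCAS(A). Of these, 2 fell (CIB2 and ATP2B2) and 1 missed the threshold (PCDH15). PCDH15 went the other way, averaging 15.5 CPM with RCAS(A)-Wnt9a and 10.7 CPM with RCAS(A). Its log2 fold change was 0.54 (SE 0.14, edgeR adjusted p = 0.0702, DESeq2 adjusted p = 0.021), so the lower sum does not hold for each gene. With 1 library left out CIB2 passed in 2 of 6 fits and ATP2B2 in 4 of 6. The adjusted p of CIB2 reached 0.15 and that of ATP2B2 0.0794. The 4 named muscle genes of 9 missed the threshold and summed to 3.25 to 5.57 CPM with RCAS(A)-Wnt9a and 8.63 to 22.1 CPM with RCAS(A). The highest sum was that of RCAS(A) pool 3, and most of it was ACTC1. ACTC1 was at 14.9 CPM in that pool, against 4.53 and 5.92 CPM in RCAS(A) pools 2 and 4. MYOD1 was at 0 in 1 library. The single named ganglion neuron gene NTRK2 fell, and the single named genes of the glia (CDH19), endothelium (FLT1) and blood (TFRC) lists rose. No gene of the general epithelium list carries a name. Over all 10 marker lists 19 of 30 named genes were called (63.3%), near the share of 54.6% among all tested genes with a name, and 10, 11 or 9 without RCAS(A) pool 2, 3 or 4 and 12 without RCAS(A)-Wnt9a pool 2. NTRK2 stayed called with any 1 library left out. CDH19 and TFRC each passed in only 1 of these 6 fits and FLT1 in 0. Their highest adjusted p was 0.181 for CDH19, 0.171 for TFRC and 0.164 for FLT1 (edgeR). All of these genes are named through the authors' calls, so their counts and sums describe those calls and not the lists. In each list the named members were detected in every library with the 1 exception of MYOD1.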

How the data were processed

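The sample titles gave each library its group and number. Per the submitters' processing notes TopHat2, DESeq, edgeR, DESeq2 and galGal4 were used; which program counted reads, whether it used strand, and which annotation it used is not given in the sources used here. The authors deposited raw whole counts for each Ensembl gene, tables of called genes and pooled FPKM. Per the file headers, the authors' DESeq2 table holds a mean normalized signal, log2 fold changes, a Wald score and p-values, and the authors' edgeR table has log2 fold changes, p-values and a mean log2 CPM. The deposited FPKM table holds a single pooled value for each group, beside its confidence bounds, and was not tested.

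Genes kept by filterByExpr (12133 of 15955) were TMM-scaled. The two-sided quasi-likelihood F-test of edgeR 4.0.16 (robust glmQLFit, then glmQLFTest, in R 4.3.3) was applied to all of them, with a threshold of 0.05 on the Benjamini-Hochberg adjusted p, and the code was tested on simulated data. The SE is the log2 fold change divided by the square root of F. Log2 CPM used a prior count of 2. Counting intervals are exact Poisson 95% intervals of the read counts and cover counting error only. The reads carry no molecular identifiers, so copies of 1 molecule may be counted apart and the intervals may be too narrow. Alternatives were DESeq2 1.42.0, other scalings, no count filter, each library left out and a replicate block.

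Of 522 genes in the authors' tables, 493 had a name, matched to RefSeq symbols of GRCg7b by accession (150) or by symbol (324), or kept as deposited (19). Named genes were LAMA3, ITGA8, WNT9A, the genes of fixed lists, the 5 nearest tested genes on each side and the 5 named genes nearest in pattern. The members, lists and rules were chosen with earlier results of these data known. For 3 pools against 3, the smallest p of an exact permutation test is 0.1. Tables were made with Python 3.11.15 and pandas 2.3.3. Gene and protein sequences were not used here.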

Additional observations from a re-analysis of the deposited data

How the results depend on the processing

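LAMA3 kept a log2 fold change of 1.27 to 1.61 and ITGA8 one of -1.03 to -0.77 over all 11 alternatives, within 1 SD between replicates of the values given. The lower bound for LAMA3 (1.27) and the smallest fall of ITGA8 (-0.77) came from the replicate block, and leaving out 1 library gave 1.34 to 1.61 and -1.03 to -0.79. The difference in the log2 LAMA3 to ITGA8 ratio was 2.16 to 2.62 with 1 library left out. Directions were close to fixed in advance, because the groups do not overlap. Over all genes the number called was 437 with DESeq2 and 506 with the replicate block against 276, and 146 to 294 with 1 library left out, lowest without RCAS(A) replicates 4 and 2. Of the 7 other named list genes, 3 were called, against 5 with DESeq2 and 5 with the replicate block. With 1 library left out 1 to 4 were called, and with no count filter 4, NTN4 among them (edgeR adjusted p = 0.043). Of the 30 named marker genes, 19 were called, and 9 to 21 with 1 library left out. The causes were not tested. Under the block TNC and ITGB6 passed (adjusted p = 4.24e-06 and 1e-12) and under DESeq2 SMOC1 and ITGB6 (0.0334 and 0.0361), with ranges over all alternatives of 4.24e-06 to 0.406 for TNC, 0.0334 to 0.528 for SMOC1 and 1e-12 to 0.525 for ITGB6. Only the numbers 2 and 3 are shared between groups, their libraries' deviations correlated at -0.01 and 0.19, and the block fit used these 4 libraries alone, so the titles are not shown to pair the pools. The block fit leaves little to estimate the spread of a gene, so its adjusted p is not on a par with those from 6 libraries. With 79 to 129 reads per RCAS(A) library, LAMA3 had a counting error of 8.80% to 11.3% in that group. That of ITGA8 was at most 2.20% in any library. The part of counting error in the spread between pools was not tested.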
